A study of Callithrix jacchus with 5 samples.

Results

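CXCL12, PCSK5, RPS6KB1, PPP3CA, TBX15 and NFIX are 6 genes that stood far above embryonic stem (ES) cell levels in the single library of induced pluripotent stem (iPS) cells of a common marmoset (Callithrix jacchus) RNA sequencing series. They are 6 of 30811 gene identifiers in the count table, and all 6 were found by symbol and passed the low-count filter that left 17462 genes tested. They were chosen by their counts in these same libraries, as genes called higher in the iPS library than in the ES lines, so every iPS value against the ES lines is a description here and carries no test. The series holds 5 libraries without treatment or time course: fibroblasts (E01F, P number 1), ES line 1 (No40, P number 63), ES line 2 (DSY127, P number 17), ES line 3 (No20, P number 45) and iPS cells (RNAiPS_1, with no P number). The labels give no genotype, sex or age. Per the series title, the iPS cells came from fibroblasts by RNA-based reprogramming, in which factors are delivered as RNA. The labels do not say whether the sequenced fibroblasts were the parent cells, how many iPS clones the library holds, or on what cells or matrix any culture grew.

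The 6 genes have different known roles. CXCL12 is a secreted chemokine of stromal cells that signals through the receptor CXCR4 and is scavenged by ACKR3. PCSK5 is a protease of the secretory pathway that cuts precursor proteins into active forms. RPS6KB1 encodes S6 kinase 1, which acts downstream of the growth-sensing complex mTORC1, and PPP3CA encodes a catalytic subunit of calcineurin, the calcium-dependent phosphatase that sends NFAT factors to the nucleus. TBX15, a T-box factor, and NFIX, of the nuclear factor I family, are transcription factors active in mesenchymal tissues during development.

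Total counts were 34111715 to 46523012 in the ES lines, 58601185 in the fibroblast library and 5746449 in the iPS library. The iPS library was therefore the shallowest, and a count of 3 in it equalled 0.507 CPM (counts scaled by TMM-adjusted library size) against 0.061 to 0.0834 CPM elsewhere. The 6 genes had 599 to 4333 counts there. Pluripotent cell and epithelial markers were high in the iPS library and the ES lines and low in fibroblasts. The 10 pluripotent cell markers tested summed to 5831 CPM in iPS cells, 3337 to 7239 CPM across ES lines and 27.0 CPM in fibroblasts, with POU5F1, a core pluripotency factor, at 1286, 1425 ± 301 and 1.64 CPM. The 8 epithelial markers summed to 1747, 1304 to 2124 and 2.84 CPM in the same order, with the adhesion gene CDH1 at 579, 519 ± 302 and 0.231 CPM. Other marker sums in the iPS library left the ES range. Trophoblast and amnion markers summed to 361 CPM against 19.35 to 308 CPM, and endoderm markers to 31.6 CPM against 107 to 542 CPM. Fibroblast, endothelial, blood and keratinocyte sums also lay outside the ES range, and muscle and neural sums inside it. With 1 iPS and 1 fibroblast library, neither group has a replicate, and all spread comes from the 3 ES lines, for which the labels do not say how cultures were kept. In such bulk samples, more cells of a type and more RNA per cell cannot be told apart.

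**Figure D1:**
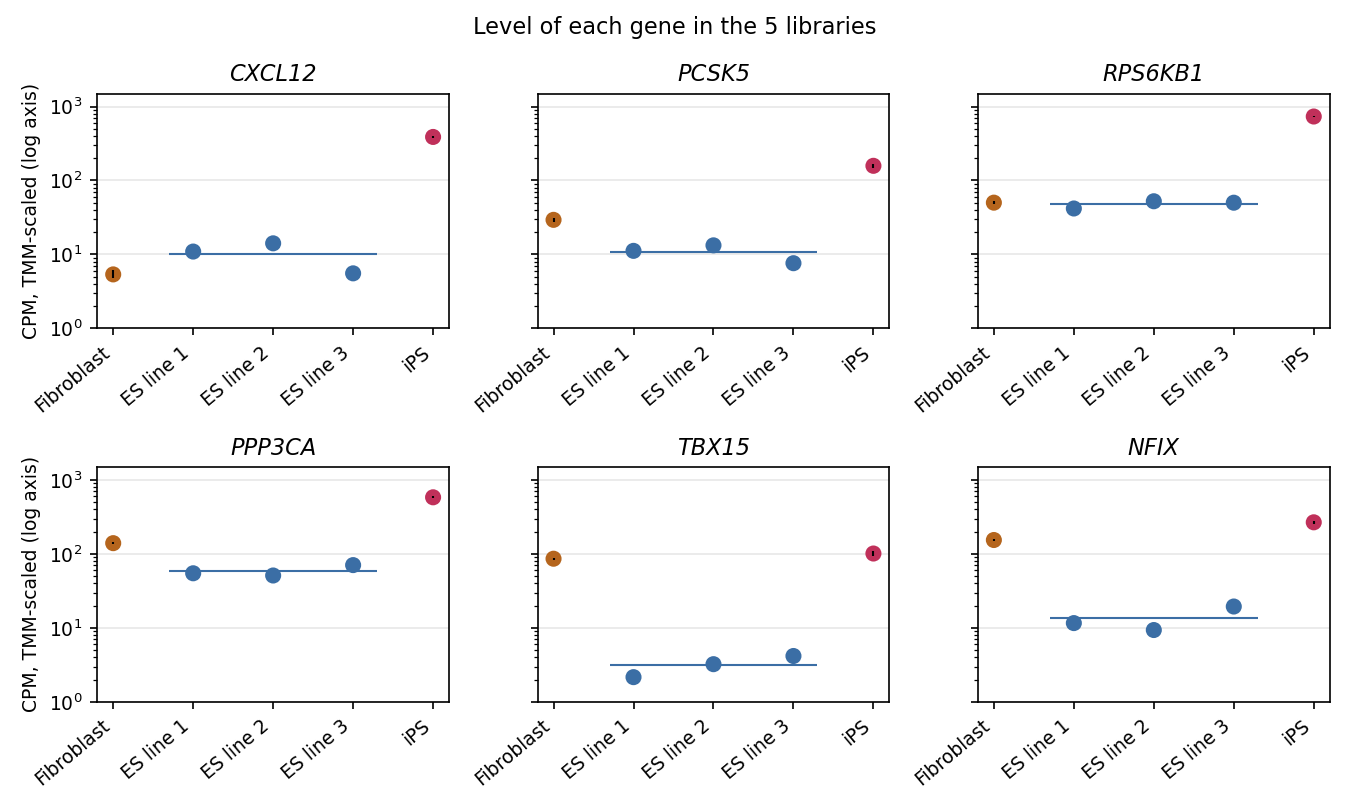
CPM of each gene (log axis) in the fibroblast library, the 3 ES lines and the iPS library. Points are libraries, the horizontal line is the ES mean, and thin vertical bars on the fibroblast and iPS points are 95% exact Poisson intervals for counting error. The iPS point is the highest in all 6 panels, from 101 CPM for TBX15 to 732 CPM for RPS6KB1.

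CXCL12 stood at 388 CPM in the iPS library (95% exact Poisson interval 372 to 404 CPM, covering counting error only). It stood at 10.9, 14.1 and 5.54 CPM in ES lines 1, 2 and 3, or 10.2 ± 4.33 CPM (SD, n = 3), and at 5.36 CPM in the fibroblast library. That iPS level was 27.5-fold above the highest ES line, while the fibroblast library was the lowest of all and next to ES line 3. In the fitted model CXCL12 was 5.25 ± 0.50 higher in iPS cells than in ES lines on the log2 scale (SE). The fibroblast value of -0.93 ± 0.57 on the log2 scale did not exceed the spread of the ES lines (adjusted p = 0.299 by the quasi-likelihood test of edgeR, with Benjamini-Hochberg adjustment over all genes tested). Because the 6 genes were chosen against these same ES lines, their fibroblast values and p-values are not independent of that choice.

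The iPS comparison called few genes of any kind, 19 of 17462 or 0.109%, so a list with 0 called genes in it does not stand apart from other genes. With p under 0.05 before adjustment, 971 of the 17462 were higher in iPS cells and 547 lower. With DESeq2 these were 349 and 67, and with limma voom 5 and 0. CXCR4, the CXCL12 signalling receptor, stood at 4.40 CPM in the iPS library, 10.7, 10.5 and 35.1 CPM across ES lines 1 to 3, and 0.252 CPM in fibroblasts. CXCR4 fell in fibroblasts against ES lines (log2 fold change -6.20 ± 1.23, adjusted p = 0.018), though not without ES line 1 or with limma voom, and iPS cells gave -2.09 ± 0.96 (adjusted p = 0.617). ACKR3 stood at 13.9 CPM in iPS cells, 13.8 CPM in fibroblasts and 7.41 ± 3.07 CPM across ES lines, and DPP4, a peptidase that trims CXCL12, at 5.41, 8.38 and 1.45 ± 0.973 CPM. Neither passed in either comparison. Of 11 receptors, ligands and relays tested, CXCR4 and ARRB2, an arrestin that desensitises receptors (-1.53 ± 0.40, adjusted p = 0.0408), fell in fibroblasts and 0 rose, with 1 higher with p under 0.05 before adjustment, 1 with DESeq2 and 0 with limma voom. Leaving out ES line 1 or ES line 2 ended the ARRB2 call. Over all genes tested, 18.1% were called between fibroblasts and ES lines, 8.80% higher and 9.28% lower in fibroblasts. With p under 0.05 before adjustment, 2744 of the 17462 were higher in fibroblasts and 3188 lower. With DESeq2 these were 2055 and 2718, and with limma voom 1674 and 1009. The list's median log2 fold change was -0.50 in fibroblasts and -0.36 in iPS cells, against -0.15 and -0.11 over all genes tested. In iPS cells 0 of the 11 passed in either direction, also with p under 0.05 before adjustment, with DESeq2 and with limma voom.

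Of 22 other secreted stromal signals tested, 13 rose and 2 fell in fibroblasts, with a median log2 fold change of 2.48, and 8 rose and 1 fell without ES line 1. CXCL14, another chemokine, reached 1191 CPM in fibroblasts against 2.77 ± 1.72 CPM in ES lines (log2 fold change 8.75 ± 0.66, adjusted p = 0.00148) and stood at 1.69 CPM in the iPS library. WNT2, a secreted WNT ligand, rose (10.23 ± 0.82), TGFB1 rose (4.13 ± 0.49), and SFRP2, a secreted WNT antagonist, fell (-4.42 ± 0.47). In iPS cells the edgeR test called 0 of these 22, with 6 higher and 2 lower with p under 0.05 before adjustment, 3 higher with DESeq2 and 0 with limma voom, and at most 4 higher over the alternatives. Their median log2 fold change in iPS cells was -0.19, or 0.0 with the 5 genes without a count there set at their bound. INHBA, a subunit of activins and inhibins, and ANGPT1, a ligand of the TEK receptor, were picked after their values were seen, and stood highest in the iPS library at 319 and 26.5 CPM, against 44.7 ± 16.6 and 0.988 ± 0.749 CPM in ES lines.

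PCSK5 stood at 158 CPM in the iPS library (interval 148 to 168 CPM). It stood at 11.2, 13.2 and 7.59 CPM in ES lines 1, 2 and 3 (10.7 ± 2.86 CPM) and at 29.3 CPM in fibroblasts. The order was iPS, fibroblast, then the ES lines. Of all genes tested, 21.0% were above every other library in iPS cells and 35.4% above all ES lines in fibroblasts. The iPS level of PCSK5, which chose it, was 11.9-fold that of the highest ES line, with a fitted log2 difference of 3.89 ± 0.40. Fibroblasts were 1.46 ± 0.41 above the ES lines on the log2 scale and just missed the threshold (adjusted p = 0.0528). It passed in 5 of 11 alternatives, among them without ES line 2 (1.74 ± 0.50, adjusted p = 0.043) and without ES line 3 (1.38 ± 0.46, adjusted p = 0.0451), but not without ES line 1, and its adjusted p ran from 0.0147 to 0.116.

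FURIN had the highest level per length of the 8 convertases measured in the fibroblast library and in the ES mean. It stood at 23.4 CPM per kb of gene model in the iPS library, 35.5 ± 3.96 CPM per kb in ES lines and 91.1 CPM per kb in fibroblasts. PCSK5 itself stood at 47.3, 3.20 ± 0.855 and 8.78 CPM per kb. PCSK5 thus made up 41.8% of the summed per-length level of these 8 genes in the iPS library, against 2.80% to 3.75% in the ES lines and 3.95% in fibroblasts. A high iPS value chose PCSK5 and not the others, so its iPS share is a description only. MBTPS1, which cuts sterol-regulated transcription factors, made up 22.2%, 29.8% to 31.4% and 24.4% of the same sum in the iPS library, ES lines and fibroblasts. PCSK6, the closest relative of PCSK5, stood at 5.24 CPM in iPS cells and 10.7 ± 3.06 CPM in ES lines, and PCSK7 at 42.8 and 66.2 ± 10.5 CPM. Of the 7 other convertases tested, 0 passed in iPS cells in any of these 4 counts (edgeR, p under 0.05 before adjustment, DESeq2, limma voom). FURIN rose in fibroblasts (1.36 ± 0.32, adjusted p = 0.0305), but not with total counts alone, with upper-quartile factors or without ES line 1. The median log2 fold change of the 7 was 0.92 in fibroblasts and -0.19 in iPS cells.

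Among 11 known convertase substrates tested, 4 rose and 2 fell in fibroblasts (median 0.96), while 1 fell without ES line 1 and 3 fell without ES line 2 or without ES line 3. MMP14, a membrane metalloprotease (4.47 ± 0.36), TGFB1 and the integrin subunit gene ITGA4 (6.001 ± 0.84) rose, and NODAL, a TGF-beta family ligand of the epiblast, fell (-9.48 ± 1.09, adjusted p = 0.00347). In iPS cells 0 passed with edgeR, DESeq2 or limma voom, and 1 was higher with p under 0.05 before adjustment. Their median there was -0.71.

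RPS6KB1 had the highest CPM of the 6 genes in the iPS library, at 732 CPM (interval 711 to 755 CPM). It stood at 41.7, 52.3 and 49.97 CPM in ES lines 1, 2 and 3 (48.0 ± 5.55 CPM) and at 50.1 CPM in fibroblasts. The ES lines varied least for this gene, by 1.25-fold from lowest to highest, and the fibroblast value lay within their range. Its iPS level was 14.01-fold that of the highest ES line, with a fitted log2 difference of 3.93 ± 0.30. Fibroblasts gave 0.06 ± 0.33 (adjusted p = 0.92), a value whose sign turned with the scaling (-0.33 with total counts alone).

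Its paralog RPS6KB2, which encodes S6 kinase 2, was highest in fibroblasts. Per kb of gene model, RPS6KB2 stood at 14.7 CPM in iPS cells, 17.5 ± 2.38 CPM in ES lines and 70.0 CPM in fibroblasts. RPS6KB1 therefore held 95.2% of the summed per-length level of both kinases in the iPS library, 50.9% to 52.9% in the ES lines and 22.1% in fibroblasts. Its high iPS value chose RPS6KB1 and not RPS6KB2, so nothing is read from the iPS share. RPS6KB2 rose in fibroblasts (log2 fold change 2.0 ± 0.34, adjusted p = 0.0114) and gave -0.25 ± 0.39 in iPS cells (adjusted p = 0.891). MTOR, the kinase of the complex, stood at 125 CPM in iPS cells against 145 ± 34.6 CPM in ES lines, and RPTOR, its scaffold, at 30.9 against 44.4 ± 12.5 CPM. Of 27 other mTORC1 and S6 kinase pathway genes tested, 6 rose and 1 fell in fibroblasts (median 0.94), and 3 rose without ES line 1 or without ES line 2, while 2 fell without ES line 3. PIK3R1, a regulatory subunit of PI3 kinase (3.98 ± 0.43), and AKT1 (2.32 ± 0.33) rose, and PIK3CB, a catalytic subunit, fell (-3.09 ± 0.52, adjusted p = 0.0107). In iPS cells edgeR called 0, with 2 higher and 2 lower with p under 0.05 before adjustment, 1 higher with DESeq2 and 0 with limma voom, and the median was -0.07. RRAGD, a GTPase that tethers mTORC1 to lysosomes, was picked after its values were seen. It stood highest in the iPS library, at 182 CPM against 42.4 ± 7.50 CPM in ES lines and 114 CPM in fibroblasts.

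PPP3CA stood at 584 CPM in the iPS library (interval 564 to 604 CPM). It stood at 54.8, 51.1 and 70.6 CPM in ES lines 1, 2 and 3 (58.8 ± 10.4 CPM) and at 140 CPM in fibroblasts. PPP3CA in fibroblasts lay between its levels in the ES lines and in iPS cells. Its iPS level was 8.27-fold above the highest ES line, the smallest such ratio of the 6 genes, with a fitted log2 difference of 3.31 ± 0.32. PPP3CA rose in fibroblasts by 1.25 ± 0.33 on the log2 scale (adjusted p = 0.0449). That call was lost in 6 of 11 alternatives, among them without ES line 1 (adjusted p = 0.0929) and without ES line 2 (adjusted p = 0.111).

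PPP3CB, a second catalytic subunit, stood at 146 CPM in iPS cells, 63.7 ± 8.88 CPM in ES lines and 124 CPM in fibroblasts, and its iPS value of 1.19 ± 0.33 on the log2 scale did not pass (adjusted p = 0.321). PPP3CC, the remaining catalytic subunit, stood at 7.10, 9.84 ± 3.76 and 22.8 CPM. PPP3CA held 74.5% of the per-length level of the 3 catalytic genes in iPS cells, 36.8% to 38.3% in ES lines and 41.5% in fibroblasts. Only PPP3CA of the 3 was chosen for its iPS level, so nothing is read from the iPS share. PPP3R1, the regulatory subunit that binds calcium, stood at 288 CPM in iPS cells and 201 ± 33.0 CPM in ES lines (0.52 ± 0.34, adjusted p = 0.737). Among the NFAT substrates in iPS cells, NFATC1 stood at 5.58 CPM, NFATC3 at 62.4 CPM and NFATC4 at 22.5 CPM, against 6.37 ± 3.24, 38.0 ± 9.26 and 30.6 ± 8.87 CPM in ES lines. NFATC2 had no count in the iPS library and 0.216 ± 0.160 CPM in ES lines, which lies below the 0.507 CPM that 3 counts are worth there.

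RCAN1, a feedback inhibitor whose gene is a classical calcineurin and NFAT target, stood at 28.4 CPM in iPS cells, 60.8 ± 12.2 CPM in ES lines and 546 CPM in fibroblasts. It rose in fibroblasts (3.17 ± 0.33, adjusted p = 0.00287) and did not pass in iPS cells (-1.10 ± 0.40, adjusted p = 0.505). ITPR1, a calcium release channel (3.05 ± 0.45), RCAN3 (2.05 ± 0.36) and NFATC4 (2.13 ± 0.40) rose in fibroblasts too. Of 26 other calcineurin and NFAT pathway genes, 5 rose in fibroblasts and 0 fell there, with 0 lower with p under 0.05 before adjustment, with DESeq2 and with limma voom (median 0.82). In iPS cells edgeR called 0, with 5 higher and 1 lower with p under 0.05 before adjustment, 1 higher with DESeq2 and 0 with limma voom, and the median was 0.15. CSNK1A1, a kinase that phosphorylates NFAT, was picked after its values were seen, and stood at 1098 CPM in iPS cells, 355 ± 18.2 CPM in ES lines and 383 CPM in fibroblasts.

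**Figure D2:**
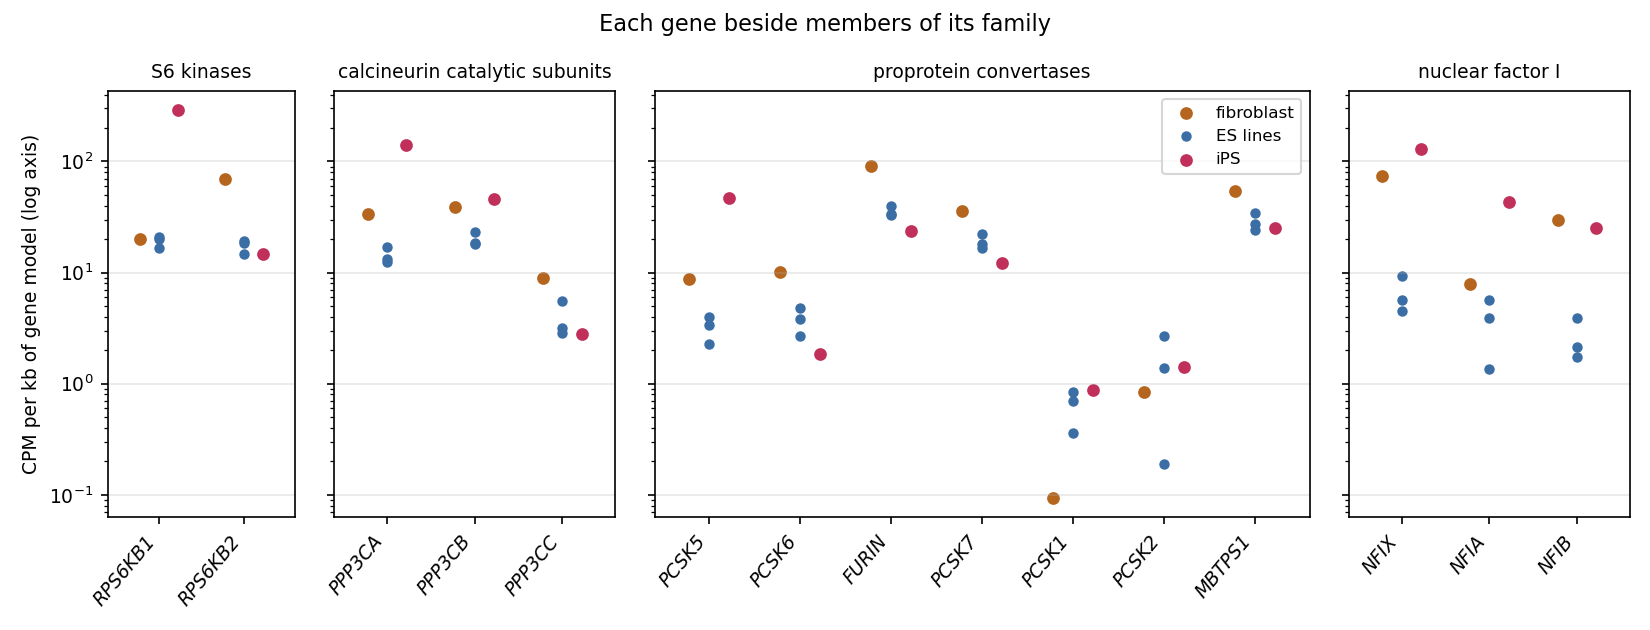
CPM per kb of gene model (log axis) of RPS6KB1, PPP3CA, PCSK5 and NFIX beside members of their families. Points are the fibroblast library, the 3 ES lines and the iPS library. RPS6KB1 (291), PPP3CA (142) and PCSK5 (47.3) were chosen for a high iPS level and their relatives were not. Their distance from the family in the iPS library is thus a description only. Of the relatives of these 3 genes, PPP3CB (45.7 against 18.15 to 23.19) and PCSK1 (0.886 against 0.359 to 0.836) are also above every ES line. NFIX, chosen for its iPS level, and its relatives NFIA and NFIB are higher in the iPS library than in any ES line, as are 26.5% of all genes tested.

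TBX15 had the lowest ES level of the 6 genes, at 2.15, 3.23 and 4.16 CPM in ES lines 1, 2 and 3 (3.18 ± 1.01 CPM). It stood at 101 CPM in the iPS library (interval 93.3 to 110 CPM) and at 86.2 CPM in fibroblasts. Both libraries lay far above all ES lines and close to each other. Its iPS level was 24.3-fold above the highest ES line, with a fitted log2 difference of 4.99 ± 0.44. TBX15 rose in fibroblasts by 4.76 ± 0.43 on the log2 scale (adjusted p = 0.00199), a call that held in all 11 alternatives (4.37 to 5.11).

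No other T-box gene rose in either comparison. Of 12 tested, 3 fell in fibroblasts, TBX4, a hindlimb and lung factor (-5.55 ± 0.84), TBXT, the brachyury gene (-9.95 ± 2.60), and TBX20, a cardiac factor at 0.510 ± 0.149 CPM in ES lines and without a count in fibroblasts, at least 8.09-fold lower there (7.14-fold at the lowest without 1 ES line). Leaving out ES line 1, or using limma voom, ended the calls of TBXT and TBX20, and leaving out ES line 2 ended that of TBX20. In fibroblasts 0 rose with edgeR, and 0 also with p under 0.05 before adjustment, with DESeq2 and with limma voom. In iPS cells edgeR called 0, with p under 0.05 before adjustment for 2 that were lower, 1 lower by DESeq2 and 0 by limma voom. TBX4 stood at 12.7, 11.04 and 18.2 CPM in the ES lines and had no count in the iPS library, at least 27.6-fold lower against a floor of 3 counts (23.4-fold at the lowest without 1 ES line). The list's median log2 fold change was -2.52 in fibroblasts and -3.30 in iPS cells, but -1.90 and -0.11 with the 2 and 5 genes without a count there set at their bound.

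Mesenchymal patterning and transition factors were widely called in fibroblasts. Of 22 tested, 16 rose (9 without ES line 1) and 1 fell (0 without ES line 1) in fibroblasts, with a median of 3.51. Those that rose included OSR1 (6.88 ± 0.58), RUNX2 (4.86 ± 0.44), OSR2 (6.33 ± 0.61) and SNAI2 (5.22 ± 0.54). In iPS cells PRRX1, a limb mesenchyme homeobox factor, was the 1 gene called (3.76 ± 0.34, adjusted p = 0.0349, 389 CPM against 28.7 ± 5.89 CPM). The 0.109% of genes called in iPS cells were all higher. Neither limma voom nor the fit without ES line 1 called PRRX1, and 4 genes of the list passed without ES line 2 and 9 without ES line 3. The median of the list in iPS cells was 1.26. With p under 0.05 before adjustment 10 genes of the list were higher (971 of 17462 over all genes tested). With DESeq2 9 were higher (349 of 17462) and with limma voom 0 (5 of 17462). SNAI2, a repressor of epithelial genes, stood at 1.52 CPM in iPS cells, 4.74 ± 2.27 CPM in ES lines and 177 CPM in fibroblasts. OSR1 stood at 15.2 CPM in iPS cells, 0.707 ± 0.325 CPM in ES lines and 84.2 CPM in fibroblasts.

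NFIX stood at 268 CPM in the iPS library (interval 255 to 281 CPM). It stood at 11.6, 9.35 and 19.4 CPM in ES lines 1, 2 and 3 (13.5 ± 5.30 CPM) and at 154 CPM in fibroblasts. NFIX in fibroblasts was nearer to its iPS level than to that of any ES line. Its iPS level was 13.8-fold above the highest ES line, with a fitted log2 difference of 4.31 ± 0.44. NFIX rose in fibroblasts by 3.52 ± 0.43 on the log2 scale (adjusted p = 0.00424), a call that held in all 11 alternatives (3.13 to 3.995).

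Its relatives NFIA and NFIB were also higher in the iPS library than in every ES line, as were 26.5% of all genes tested. Neither passed the test. NFIB stood at 239 CPM in iPS cells, 16.6, 20.3 and 37.0 CPM across ES lines and 283 CPM in fibroblasts. It rose in fibroblasts (3.52 ± 0.46, adjusted p = 0.0049), and iPS cells gave 3.28 ± 0.46 (adjusted p = 0.0776), which passed in 4 of 10 alternatives, among them without ES line 3. NFIA stood at 139 CPM in iPS cells, 18.3, 4.42 and 12.6 CPM across ES lines and 25.8 CPM in fibroblasts, with 3.56 ± 0.65 in iPS cells (adjusted p = 0.12) and 1.13 ± 0.68 in fibroblasts (adjusted p = 0.288). The iPS value of NFIA also passed in 4 of 10 alternatives, among them without ES line 2 and without ES line 3. Of these 2 genes the iPS comparison called 0 with edgeR and 0 with limma voom, while both were higher with p under 0.05 before adjustment and with DESeq2. NFIX held 65.5% of the per-length level of the 3 genes in iPS cells, 66.3% in fibroblasts and 43.1% to 56.3% in ES lines. Only NFIX of the 3 was chosen for its iPS level, so nothing is read from the iPS share.

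The fibroblast library was compared with the same 3 ES lines against which the genes were chosen. Against them 3 of the 6 genes rose in fibroblasts, TBX15, NFIX and PPP3CA, and 0 fell with edgeR, DESeq2, limma voom or with p under 0.05 before adjustment. Over all genes tested 8.80% rose, and since the low ES values enter both the choice and this comparison, nothing is read from the count. The count of genes that rose was 2 to 4 over the 11 alternatives. By level, 4 genes lay above all ES lines in fibroblasts (35.4% of all genes tested), RPS6KB1 lay among them, and CXCL12 lay below all of them (39.0% of all genes tested).

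**Figure D3:**
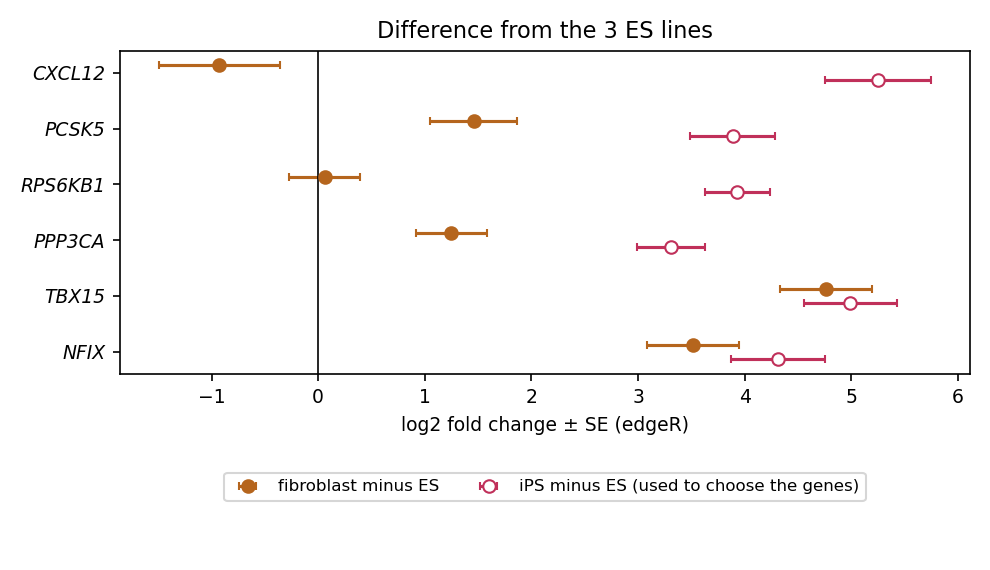
Log2 fold change with SE (horizontal bars) from the edgeR fit for fibroblasts minus the 3 ES lines (filled) and iPS cells minus the same ES lines (open), for each gene. The open points chose the genes and run from 3.31 to 5.25, while the filled points run from -0.93 for CXCL12 to 4.76 for TBX15.

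For all 6 genes the iPS library was above the fibroblast library, as it was for 50.7% of all genes tested, and the ratio ranged widely. Intervals here are 95% exact conditional intervals of the ratio of 2 single libraries, for counting error only, and no replicate checks them. CXCL12 was 72.4-fold higher in the iPS library (63.6 to 82.7), RPS6KB1 14.6-fold (13.9 to 15.4), PCSK5 5.38-fold (4.95 to 5.85) and PPP3CA 4.17-fold (4.002 to 4.35). NFIX was 1.74-fold (1.64 to 1.83) and TBX15 1.18-fold (1.08 to 1.28) higher. All 6 genes were thus above every other library, as were 21.0% of all genes tested. Of the 6, 4 were at least 4-fold above both the ES mean and the fibroblast level, as were 3.85% of all genes tested. These shares describe the genes only, since the high iPS value chose them.

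**Figure D4:**
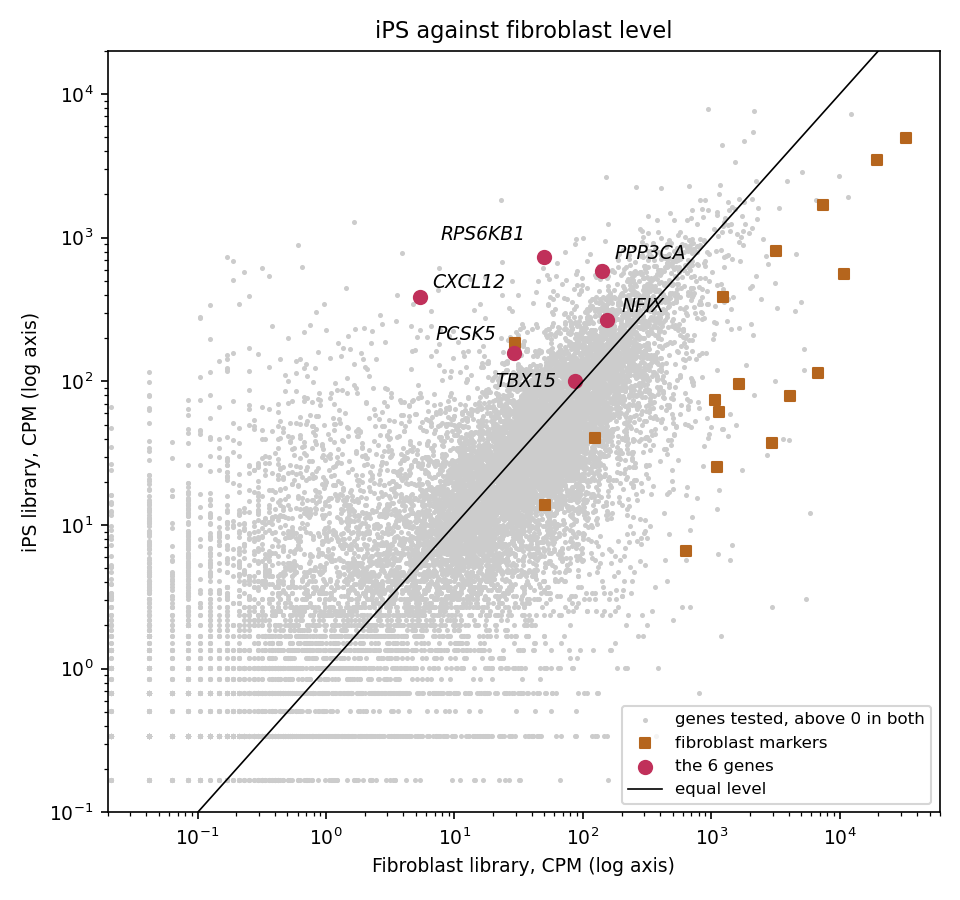
CPM in the iPS library against CPM in the fibroblast library (log axes) for genes tested with a count in both (grey), the 17 fibroblast markers (squares) and the 6 genes (large circles). The 6 genes lie above the line of equal level, and 16 of the 17 fibroblast markers lie below it.

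The 17 fibroblast markers tested summed to 12550 CPM there, 3314 to 4252 CPM across ES lines and 94410 CPM in fibroblasts, so the iPS sum was 13.3% of the fibroblast sum, and 9.88% without COL1A1 and COL1A2 (4175 CPM, against 2461 to 3170 CPM across ES lines). Without COL3A1 and COL5A2 as well, a pair picked after their values were seen, the iPS sum was 1681 CPM, against 2088 to 3013 CPM in the ES lines. Each collagen gene left out was above all ES lines in the iPS library. The removal thus lowers the iPS sum by itself, and nothing is read from it. Of the 17, 6 were above all ES lines in the iPS library (26.5% of all genes tested), 7 were below all of them, and 0 had no count. COL1A2 was the 1 marker called in iPS cells, and the median log2 fold change of the list was 0.0. COL1A1 and COL1A2, the chains of type I collagen, stood at 4922 and 3447 CPM in iPS cells, 862 ± 348 and 250 ± 19.05 CPM in ES lines, and 32530 and 19650 CPM in fibroblasts. DCN, a proteoglycan of fibroblast matrix, stood at 6.59 CPM in iPS cells, below the 11.2 ± 1.93 CPM of the ES lines, and at 636 CPM in fibroblasts. Single markers ran from 1.04% of the fibroblast level for DCN to 32.5% for PDGFRB, apart from FBLN1, which was lower in fibroblasts than in any other library. The 6 genes stood above the fibroblast level, but their high iPS value chose them, so their ratios are not set against those of the markers. The part of fibroblast marker expression in the levels of the 6 genes was not tested.

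Likeness of profile over the 5 libraries was described for each gene. The measure was the Euclidean distance between log2 CPM profiles centred on each gene's own mean, over 10122 other genes with a symbol and at least 1 CPM on average. With only 5 libraries it is a description. The iPS and ES values that enter the distance also chose the genes, so nothing is read from nearness among them. TBX15 and NFIX were 1.27 apart, with only ANKRD44 nearer to TBX15, while MEIS2, TRPS1 and LIX1L were nearer to NFIX. PCSK5 and PPP3CA were 1.06 apart, and PPP3CA was the nearest gene to PCSK5, while DUSP10, MBD5 and HGF were nearer to PPP3CA. CXCL12 and TBX15 were the farthest pair, at 5.30.

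**Figure D5:**
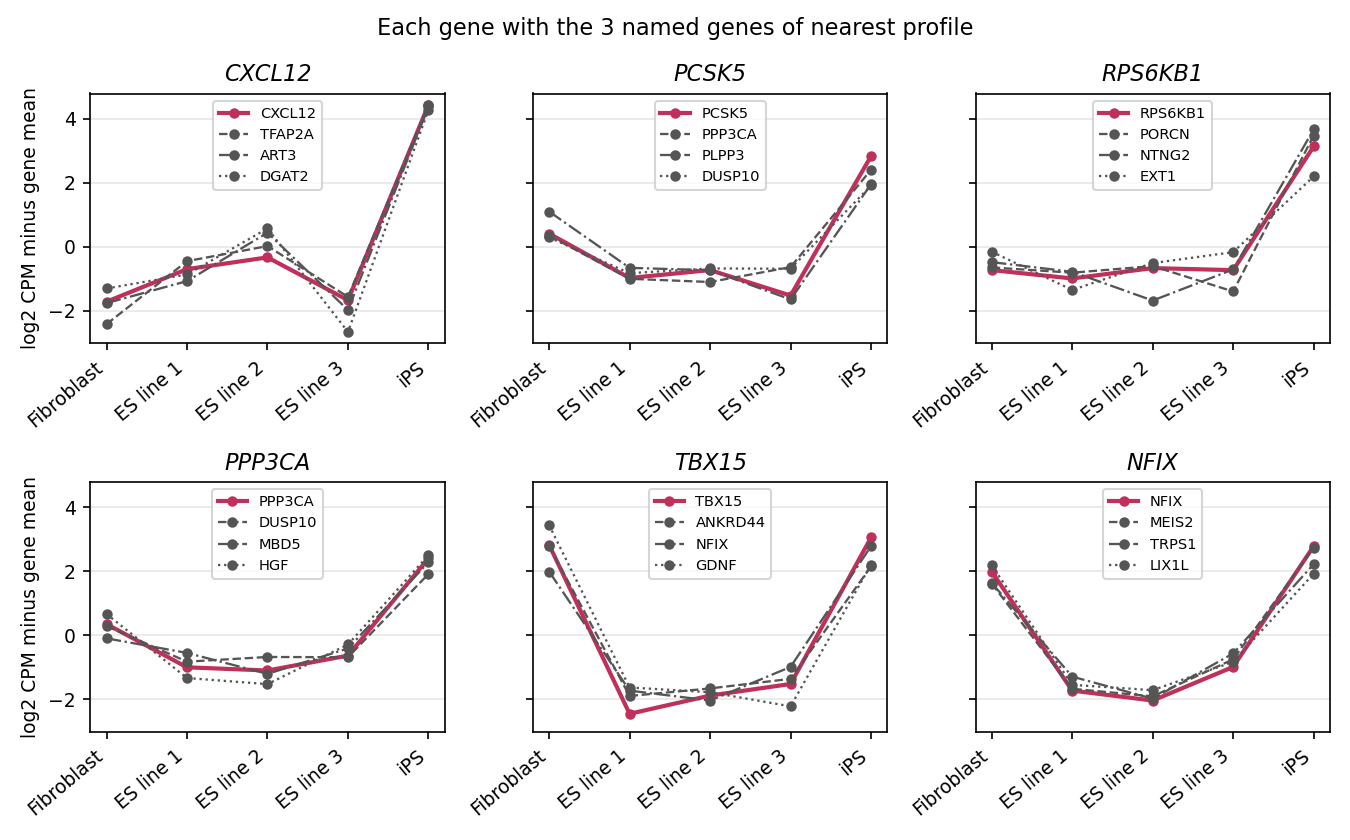
Log2 CPM minus the gene's mean over the 5 libraries for each gene (coloured) and the 3 named genes of nearest profile (grey line styles). Lines join libraries as a guide only. CXCL12 and RPS6KB1 peak in the iPS library alone, while TBX15 and NFIX are high in both the fibroblast and the iPS library.

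Nearest to CXCL12 were TFAP2A, an AP-2 transcription factor of ectoderm and neural crest (distance 0.83), ART3 (0.92) and DGAT2, an enzyme of triglyceride synthesis (1.43). TFAP2A stood at 235 CPM in the iPS library, 7.90, 10.99 and 3.61 CPM across ES lines 1 to 3 and 1.97 CPM in fibroblasts. Nearest to RPS6KB1 were PORCN, which lipidates WNT ligands (0.78), NTNG2 (1.19) and EXT1, a heparan sulfate polymerase (1.30). PORCN stood at 187 CPM in the iPS library, 10.7 CPM in fibroblasts and 8.94 CPM as the ES mean. After PPP3CA, PCSK5 was nearest to PLPP3, a lipid phosphatase (1.17), and DUSP10, a phosphatase of MAP kinases (1.26). DUSP10 was also the nearest to PPP3CA (0.68), before MBD5 (0.69) and HGF, the ligand of the MET receptor (0.72).

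NFIX was nearest to MEIS2, a homeobox factor (0.47), which stood at 157 CPM in the iPS library, 7.31, 6.20 and 13.9 CPM across ES lines and 72.2 CPM in fibroblasts. TRPS1, a zinc finger repressor (0.90), and LIX1L (0.97) followed. TBX15 was nearest to ANKRD44 (1.1), with the neurotrophic factor gene GDNF after NFIX (1.51). Among genes with a symbol, the members with the lowest rank in the comparison that chose them were NFIX (4.31 ± 0.44) and PCSK5 (3.89 ± 0.40), and TFAP2A (4.97 ± 0.56) lay just outside the threshold. COL12A1, COL1A2, PRRX1 and PORCN were the other genes with a symbol inside it, at 4.37, 3.78, 3.76 and 4.39.

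The 6 genes lie on 6 chromosomes, so no position is shared. Coordinates are those of the files, and no source used here states their genome build. CXCL12 (ENSCJAG00000016304) spans 32328820 to 32341234 on the minus strand of chromosome 12, and PCSK5 (ENSCJAG00000012841) spans 92524771 to 92837251 on the minus strand of chromosome 1. RPS6KB1 (ENSCJAG00000001416) spans 84613469 to 84672206 on the plus strand of chromosome 5, and PPP3CA (ENSCJAG00000015260) spans 92356194 to 92673364 on the plus strand of chromosome 3. TBX15 (ENSCJAG00000005662) spans 155107891 to 155224427 on the minus strand of chromosome 7, and NFIX (ENSCJAG00000004603) spans 12238050 to 12314921 on the plus strand of chromosome 22. After overlapping exons were merged the models held 11, 21, 17, 14, 8 and 14 exons in that order, and 1199 to 4118 bases.

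No neighbouring gene passed the test in iPS cells, but only 0.109% of all genes tested did, so the neighbours do not stand apart. Some lay under the 0.507 CPM of 3 counts in the iPS library, among them LYL1, next to NFIX, at 0.169 CPM. TBX15 alone overlaps another gene, WARS2, a mitochondrial tryptophanyl-tRNA synthetase gene on the same strand, over 14108 bases of span. WARS2 stood at 16.2 CPM in iPS cells, 23.5 ± 6.61 CPM in ES lines and 20.9 CPM in fibroblasts (-0.54 ± 0.51 in iPS cells, adjusted p = 0.812). TUBD1, on the other strand with its start 193 bases from that of RPS6KB1, stood at 8.28 CPM in iPS cells and 17.4 ± 3.09 CPM in ES lines (-1.07 ± 0.54, adjusted p = 0.65). The nearest tested genes on either side of all 6 had adjusted p from 0.65 upwards in iPS cells.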

How the data were processed

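RNA was sequenced from 5 marmoset libraries, 1 of fibroblasts, 3 of ES lines and 1 of iPS cells. Raw whole-number counts of reads were deposited for each gene, once in a table of the series and once per library, with identical values. Per the submitters' processing notes, the tools were featureCounts 1.5.2, STAR 2.5.3a and Trim Galore 0.4.0, with no role or order stated. No source used here states the build, strand or multi-mapping settings, so genes with near-identical copies or overlaps may share reads. The deposited gene model length in bases was used for levels per kb.

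Of the identifiers, 41.1% matched a symbol. Analysis used edgeR 4.0.16, DESeq2 1.42.0 and limma 3.58.1 under R 4.3.3: filterByExpr, TMM factors, 1 quasi-likelihood fit over all 5 libraries with 2 residual degrees of freedom, and Benjamini-Hochberg adjustment over 17462 genes, called under 0.05. The fit takes each lone library to vary as the ES lines do, and p-values measure the spread between those lines only. The SE is the log2 fold change divided by the root of the F statistic. Log2 CPM used a prior count of 2. Of 209 entries in 9 pathway lists, 144 matched an identifier. RPS6, TBX18 and NFIC had no match and are not analysed here. The members and lists were chosen with earlier results of these data known. Named list genes are paralogs and direct partners of the members, the up to 4 list genes with the smallest adjusted p in fibroblasts, and those called in iPS cells, with the 3 genes of nearest profile, overlapping genes and 5 markers. Genes named outside this rule were picked after their values were seen, TUBD1 by its position. A gene that this rule names in the convertase list is not reported here. The fit was tested on simulated data. Alternatives were other scalings, filters and tools, and leaving out each ES line.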

Additional observations from a re-analysis of the deposited data

How the results depend on the processing

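The 6 iPS values against the ES lines kept their sign in all 10 alternatives and moved by less than the ES spread. Large rises in this comparison chose the genes, so a kept sign is no support for them. The calls that chose them were not kept in every setting, since without ES line 1 no gene was called in iPS cells. Without 1 ES line the values ran from 4.98 to 5.57 (CXCL12), 3.72 to 4.08 (PCSK5), 3.82 to 3.99 (RPS6KB1), 3.21 to 3.49 (PPP3CA), 4.75 to 5.26 (TBX15) and 4.09 to 4.70 (NFIX). In fibroblasts against ES lines, TBX15 and NFIX passed in all 11 alternatives, and CXCL12 in none. PCSK5 passed with RLE factors (1.48), no low-count filter (1.46) and DESeq2 (1.48), ran from 1.38 to 1.74 without 1 ES line (passing without ES line 2 or ES line 3), and did not pass in the other 6 alternatives. PPP3CA did not pass with upper-quartile factors (0.99), total counts alone (0.86), limma voom (1.26) or the fibroblast and ES libraries alone (1.25), and ran from 1.24 to 1.52 without 1 ES line. RPS6KB1 changed sign with upper-quartile factors (-0.20), total counts alone (-0.33) and at least 10 counts in every library (-0.004), MTOR with the first (-0.032) and second (-0.16), NFATC2 with the same (-0.046 and -0.17) and without 1 ES line (-0.10 without ES line 3 to 0.247 without ES line 2), and PPP3R1 with total counts alone (-0.11).

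With total counts alone the median over all genes in fibroblasts went from -0.15 to -0.54 (log2), and with upper-quartile factors to -0.41. The log2 ratios of iPS to fibroblast with upper-quartile factors and with total counts alone were 6.48 and 6.52 for CXCL12, 2.73 and 2.77 for PCSK5, 4.17 and 4.21 for RPS6KB1, 2.36 and 2.40 for PPP3CA, 0.53 and 0.58 for TBX15, and 1.09 and 1.14 for NFIX. Of 138 pathway genes together, 46 rose in fibroblasts (31 to 55 over the alternatives) and 10 fell in fibroblasts, 6 with at least 10 counts in every library or with limma voom, and 4 to 16 without 1 ES line. In iPS cells 1 rose, 3 with upper-quartile factors, 13 with no low-count filter, 8 with at least 10 counts in every library, 16 with DESeq2, 0 with limma voom and 0 (without ES line 1) to 16 (without ES line 3) without 1 ES line. There 0 fell, 1 with no low-count filter or with DESeq2 and 0 to 1 without 1 ES line. Over all genes tested the calls moved too. Those higher in iPS cells were 19, then 25 with upper-quartile factors and 198 of 23156 with no low-count filter. They were 132 of 12244 with at least 10 counts in every library, 349 with DESeq2 and 5 with limma voom. Without 1 ES line they were 0 (without ES line 1) to 256 (without ES line 3). In fibroblasts 1537 rose and 1620 fell, and 924 to 2184 rose without 1 ES line. The cause of these changes was not tested. No paired analysis was possible because the fibroblast and iPS groups have 1 library each. The depth of the iPS library limits what can be said of genes under 0.507 CPM there.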
